A study of Mus musculus with 4 samples.

Results

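The genes of leukotriene and prostaglandin synthesis were followed over 4 mouse bone marrow populations. The members were Pla2g4a, Ptgs1, Ptgs2, Ptges, Alox5, Alox5ap, Lta4h and Ltc4s, and every probe set whose annotation named exactly 1 of these genes was used. This gave 12 probe sets for 7 of the 8 genes, out of 18193 genes with a probe set of a single gene symbol. Ptgs1 was not analysed here.

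The study measured gene expression on single-colour Affymetrix arrays in cell types used as nuclear donors for cloning, with 1 array per cell type. Granulocytes were sorted from bone marrow for high granularity and strong Gr-1 staining, at a purity of 99.4% by morphology. The other 3 types were selected for c-Kit and sorted without lineage antigens. They were hematopoietic progenitor cells (HPC), stem cells with long-term repopulating ability (LT-HSC) and stem cells with short-term repopulating ability (ST-HSC). HPC lacked Sca-1, LT-HSC had Sca-1 but no CD34, and ST-HSC had both. Genotype, strain and age of the mice, and whether animals were pooled, were not given in the sources used here. RNA came from 50 to 200 cells per type, which had been packed into emptied egg coats, and passed through 2 rounds of amplification.

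Eicosanoids are signalling lipids made from arachidonic acid. Cytosolic phospholipase A2 (Pla2g4a) frees arachidonic acid from membranes. The cyclooxygenases (Ptgs1, Ptgs2) turn it into prostaglandin H2, which the microsomal synthase Ptges converts to prostaglandin E2. Alternatively 5-lipoxygenase (Alox5), helped by its activating membrane protein (Alox5ap, also called FLAP), makes leukotriene A4. Lta4h hydrolyses that to leukotriene B4, a chemoattractant of neutrophils, and Ltc4s couples it to glutathione to give leukotriene C4, a product known from mast cells, basophils and eosinophils. Prostaglandin E2 is also known to act on hematopoietic stem cells.

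The promoter windows of Alox5, Ptgs2 and Ptges are shown because each of these genes passed 4-fold in 1 of the 3 comparisons made. Alox5ap, which also did, had no window. Each is the RefSeq window of mouse build GRCm38.p6 from 250 bases before to 50 after the gene's start, 5′ to 3′ on the gene's strand. Capitals mark matches to any of 5 short motifs on either strand. The GC box of the factor Sp1 was searched as GGGCGG. The core that ETS factors such as PU.1 bind was searched as GAGGAA. The site of C/EBP factors was searched as TTGCNNAA, the cyclic AMP response element as TGACGT and the TATA box as TATAAA. The Alox5 window is chr6:116461129-116461428 on the minus strand, the Ptgs2 window chr1:150099781-150100080 on the plus strand and the Ptges window chr2:30903248-30903547 on the minus strand.
Alox5: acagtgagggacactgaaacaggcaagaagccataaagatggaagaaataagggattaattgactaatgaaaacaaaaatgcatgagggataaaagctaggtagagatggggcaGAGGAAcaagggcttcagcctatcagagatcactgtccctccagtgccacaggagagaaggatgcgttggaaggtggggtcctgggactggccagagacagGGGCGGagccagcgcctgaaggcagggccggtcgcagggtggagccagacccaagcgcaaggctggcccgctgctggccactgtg
Ptgs2: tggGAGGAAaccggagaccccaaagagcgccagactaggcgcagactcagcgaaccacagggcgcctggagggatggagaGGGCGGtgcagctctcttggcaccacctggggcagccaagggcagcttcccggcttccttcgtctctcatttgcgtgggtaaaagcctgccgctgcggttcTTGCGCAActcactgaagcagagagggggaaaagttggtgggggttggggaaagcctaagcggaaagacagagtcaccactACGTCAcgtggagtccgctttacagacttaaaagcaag
Ptges: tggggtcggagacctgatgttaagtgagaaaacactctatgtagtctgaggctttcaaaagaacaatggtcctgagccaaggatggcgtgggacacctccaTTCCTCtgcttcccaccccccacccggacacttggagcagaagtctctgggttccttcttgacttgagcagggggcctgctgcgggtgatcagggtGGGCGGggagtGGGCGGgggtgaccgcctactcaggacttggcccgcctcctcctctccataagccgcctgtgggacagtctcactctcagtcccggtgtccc

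The Alox5 window held 1 GAGGAA and 1 GGGCGG. The Ptgs2 window held 1 match each to GAGGAA and GGGCGG, 1 stretch that matched TTGCNNAA on both strands, and 1 TGACGT on the other strand. The Ptges window held 1 GAGGAA on the other strand and 2 copies of GGGCGG. Of 32851 windows of the same length, 35.7% held GGGCGG, 28.3% GAGGAA, 10.8% TTGCNNAA, 7.51% TGACGT and 13.6% TATAAA. None of the 3 windows held TATAAA. The matches describe the letters and are no evidence of binding. By symbol, 7 of the 8 members had a window.

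Signals are in arbitrary units on a linear scale. Signals at or under 120.1, the median of all signals on the 4 arrays, were treated as unmeasured and set to that floor before a ratio was taken, so a ratio with 1 side at the floor is written as "at least". Each cell type had 1 array, so differences could not be checked against replicates and no p-value is given. The number of arrays limits the precision. As a rough measure of error, the SD of the log2 difference between probe sets of the same gene was 0.85 (1.80-fold) for granulocytes against the mean of the other arrays. It was 0.54 (1.46-fold) for HPC against the mean of the stem cell arrays and 0.61 (1.52-fold) for LT-HSC against ST-HSC. Each was taken over 2874 genes with more than 1 probe set above the floor on all 4 arrays. This SD covers neither sorting nor amplification, nor probe sets with a signal at the floor. In such bulk samples, fewer cells of a type and less RNA per cell cannot be told apart.

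The arrays were set against markers of their labels. All 11 measured markers of mature neutrophils were above the floor and at least 4-fold higher in granulocytes than on each other array. The stem and progenitor markers Kit, Cd34, Procr, Hlf, Mecom and Meis1 were lower in granulocytes than on each other array, although for Mecom the HPC signal also lay under the floor. The LT-HSC array had some neutrophil transcripts above the floor and others under it. Signals of S100a8, S100a9, Ltf, Camp, Ngp and Lcn2 there were between 3.19% and 11.9% of those in granulocytes, while on the HPC and ST-HSC arrays the same 6 genes stayed at or under 0.323%. Mmp8, Mmp9, Itgam and Cxcr2, from the same list of 11, were under the floor in LT-HSC. Itgam and Cxcr2 were only 2570 and 2113 in granulocytes, so a share of 3.19% would also lie under the floor. A share of 11.9% would lie above it. Mmp8 and Mmp9 were 45532.5 and 48873.6 in granulocytes, where a share of 3.19% would lie above the floor. In LT-HSC they were 77.4 and 65.8. Csf3r went the other way, at 3.24% of granulocytes in LT-HSC and 14.2% in ST-HSC. Summed over the 11 markers, the signal was 23306 on the LT-HSC array, 1628 on HPC, 3062 on ST-HSC and 442992 on granulocytes. The LT-HSC array also had the highest summed signal of 6 B-lineage genes, 14005 against 525 on ST-HSC and 6723 on HPC.

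**Figure D1:**
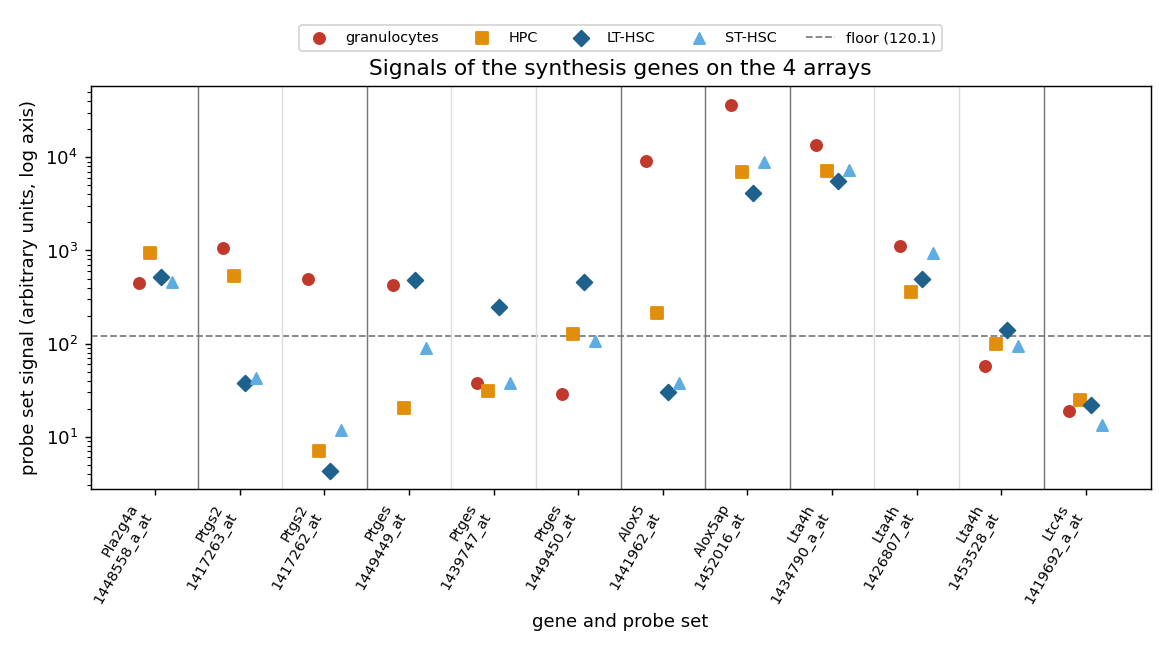
Signal of each of the 12 probe sets (x axis, grouped by gene) on the 4 arrays, in arbitrary units on a log axis, 1 point per array, with the floor of 120.1 as a dashed line. Granulocytes are the highest points for Alox5, Alox5ap and Ptgs2, LT-HSC for all 3 probe sets of Ptges, and Ltc4s lies under the floor everywhere.

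Granulocytes were compared with each other array to see which of these genes set the differentiated donor cells apart. Of the 7 genes, granulocytes exceeded every other array by at least 4-fold for 2 (Alox5 and Alox5ap) and lay at least 4-fold under every other array for 0. Over all 18193 genes the shares were 2.86% higher and 5.34% lower. The median difference of the 7 genes, each taken as the smallest of its 3 differences or as 0 where signs were mixed, was 0.90 on the log2 scale, against 0 for all genes. A gene with all signals at the floor also counted as 0, which draws the median of all genes to 0.

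Alox5, the lipoxygenase itself, had the widest range of the 7. Its signal was 9121 in granulocytes and 214 in HPC, against 30.0 in LT-HSC and 37.9 in ST-HSC. Granulocytes lay far above the rest, HPC was above the floor and both stem cell arrays were below it. Granulocytes were 42.7-fold above HPC and at least 75.9-fold above each stem cell array, and the gene ranked 39 of 18193 by its smallest difference. Alox5 in LT-HSC was 0.329% of its granulocyte signal, on an array where the 11 neutrophil markers ran from 0.135% (Mmp9) to 11.9% (S100a8). The Alox5 and Mmp9 signals there lay under the floor, so neither share counts as measured and Alox5 cannot be placed within that range. Against the stem cell arrays, HPC was at least 1.78-fold higher. This gene has 1 probe set, so nothing checks it within the array.

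Alox5ap, the partner that presents arachidonic acid to the lipoxygenase, was bright on all 4 arrays. Its signal was 36839 in granulocytes, 7042 in HPC, 8963 in ST-HSC and 4132 in LT-HSC. Granulocytes were 5.23-fold above HPC, 8.91-fold above LT-HSC and 4.11-fold above ST-HSC. The smallest of these, 2.04 on the log2 scale, fell to 1.67 after scaling to the hybridization controls and to 1.73 after quantile normalization, which is under 4-fold. Among the other 3 arrays LT-HSC was lowest, 2.17-fold under ST-HSC, and ST-HSC and HPC were 1.27-fold apart. The nearest measure of spread between probe sets, 1.46-fold for HPC against the mean of the stem cell arrays, was wider. So the stem cell arrays without measurable Alox5 carried a clear Alox5ap signal. The Alox5ap signal in LT-HSC was 11.2% of that in granulocytes, within the range of the 6 granule transcripts on that array, and their part in it was not tested. On the ST-HSC array Alox5ap was at 24.3%, where those 6 were at or under 0.253% and Csf3r was at 14.2%.

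Lta4h, the hydrolase that makes leukotriene B4, differed less. Its brightest probe set gave 13568 in granulocytes, 7285 in ST-HSC, 7062 in HPC and 5545 in LT-HSC. Granulocytes were the highest array, by 1.86-fold over ST-HSC, 1.92-fold over HPC and 2.45-fold over LT-HSC. A second probe set, at 1122, 933, 360 and 494 in the same order, also had granulocytes highest, but only 1.20-fold above ST-HSC. The third was under the floor except in LT-HSC, where it was 139. Granulocytes kept the highest value of Lta4h under each scaling tried, with a smallest log2 difference of 0.32 to 1.08.

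Ltc4s, the enzyme of the leukotriene C4 branch, was not measurable on any array. Its signals were 24.9 in HPC, 22.0 in LT-HSC, 18.7 in granulocytes and 13.3 in ST-HSC, all under the floor, so no order can be read from them. Of the markers of cells known for this enzyme, Fcer1a and Cma1 (basophil and mast cell) and Epx, Ccr3 and Il5ra (eosinophil) were also under the floor on all 4 arrays. Of the 2 other eosinophil markers, Prg2 was 291 in granulocytes and 126 in HPC, and Siglecf 246 in HPC. Other basophil and mast cell markers were present, with Cpa3 at 1186 and Mcpt8 at 1096 in HPC. In HPC, 5 of 8 measured genes of that list were above the floor, among them Ms4a2 at 126.5 and Tpsb2 at 134.7, close to it. In granulocytes 4 of the 8 were above it. Over all probe sets the shares above the floor were 48.8% in HPC and 52.5% in granulocytes.

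On the prostaglandin arm, Ptgs2, the inducible cyclooxygenase, was higher in granulocytes than in the stem cells on both of its probe sets. The brighter one gave 1056 in granulocytes, 527 in HPC, 42.7 in ST-HSC and 38.2 in LT-HSC. Granulocytes were at least 8.79-fold above each stem cell array and 2.00-fold above HPC. The other gave 492 in granulocytes and 7.1, 4.3 and 11.7 on the other arrays, at least 4.09-fold higher in granulocytes than on each. The probe sets therefore disagreed on HPC, which was well above the floor on one and under it on the other. The 2.00-fold difference from HPC, 1.00 on the log2 scale, was 0.38 after scaling to the hybridization controls. With HPC left out, the smallest difference of granulocytes was 3.14 on the log2 scale, past 4-fold.

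Ptgs2 is also known from cumulus cells, which surround the egg coat into which the cells had been packed. Of 9 measured cumulus and granulosa markers, 7 were above the floor in granulocytes, against 3, 3 and 2 on the HPC, LT-HSC and ST-HSC arrays. Over all probe sets, 52.5% were above it in granulocytes and 48.7% to 49.9% on the other arrays. Of 9 oocyte markers, 5 were above it in granulocytes, against 3, 2 and 1 in the same order. The cumulus and granulosa markers summed to 8137 in granulocytes and 936 to 1171 on the other arrays. Inhba alone made up 6566 of the granulocyte sum. Has2 was 333 and Tnfaip6 415 in granulocytes and both were under the floor elsewhere, while Fshr, at 124, was barely above it and Ereg was under it on all 4 arrays. Ptx3 and Foxl2 went the other way. Ptx3 was 55.7 in granulocytes, under the floor, and 164 in HPC. Foxl2 was 144 in granulocytes, 362 in HPC and 317 in ST-HSC. The part of cumulus cells in the Ptgs2 signal was not tested.

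Pla2g4a, the phospholipase at the head of the pathway, had no higher signal in granulocytes than on the other arrays. Its signal was 930 in HPC, 520 in LT-HSC, 455 in ST-HSC and 452 in granulocytes. HPC was highest, by 2.06-fold over granulocytes, and the other 3 arrays lay within 1.15-fold of each other.

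Ptges, the prostaglandin E2 synthase, was the member in which LT-HSC led. Its 3 probe sets gave LT-HSC signals of 487, 246 and 456. On the first, granulocytes had 422, HPC 20.3 and ST-HSC 90.3. On the second, granulocytes had 37.5, HPC 30.9 and ST-HSC 37.5, all under the floor. On the third, granulocytes had 28.7, HPC 127 and ST-HSC 107. LT-HSC was thus the highest array on all 3, but the probe sets disagreed on granulocytes, which were 1.15-fold below LT-HSC on the first and at least 3.79-fold below it on the third.

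The progenitors were set against LT-HSC and ST-HSC, where 1 of the 7 genes, Ptgs2, was at least 4-fold higher and 0 were at least 4-fold lower. Over all genes the shares were 0.275% higher and 0.346% lower. The Ptgs2 difference, at least 4.39-fold against each stem cell array, came from the brighter probe set, and on the other all 3 arrays lay under the floor. Pla2g4a was 1.79-fold above LT-HSC and 2.04-fold above ST-HSC in HPC. Monocyte and macrophage markers were higher in HPC and granulocytes as a sum, but not gene by gene. Their summed signal over 8 genes was 14776 in HPC and 16340 in granulocytes, against 1033 in LT-HSC and 1614 in ST-HSC. Csf1r made up 11928 of the HPC sum and 13089 of the granulocyte sum, and Cd68 was 1640 and Adgre1 1102 in granulocytes. Ccr2 was 1337 in HPC but 312 in granulocytes, under the 388 of ST-HSC. Cx3cr1 was 311 in HPC and 34.4 in granulocytes, where Mrc1 was also under the floor. C1qa and C1qb were under the floor on all 4 arrays. The part of such cells in the Ptgs2, Pla2g4a, Alox5 and Alox5ap signals was not tested.

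LT-HSC were compared with ST-HSC to see what separated the stem cell gates. Of the 7 genes, 1 (Ptges) was at least 4-fold higher in LT-HSC and 0 were at least 4-fold lower, against 1.29% and 0.693% of all genes. Ptges was at least 4.05-fold higher on its brightest probe set, at least 2.05-fold on the second and at least 3.79-fold on the third. All 3 ST-HSC signals lay under the floor, so the 4-fold count rests on a margin of a few percent and was lost under 4 of 9 alternatives. Of 11 neutrophil markers, 6 were also at least 4-fold higher in LT-HSC than in ST-HSC and 1, Csf3r, was at least 4-fold lower. Of 6 B-lineage genes, 4 were at least 4-fold higher in LT-HSC. The B-lineage sum was also 6723 in HPC, where the Ptges signals were 20.3, 30.9 and 127. Granulocytes themselves lay under the floor on 2 of the 3 Ptges probe sets. On the brightest they were at 422, against 487 in LT-HSC. The part of neither set of transcripts was tested. Alox5ap went the other way, 2.17-fold lower in LT-HSC, and so did Lta4h, by 1.31-fold.

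**Figure D2:**
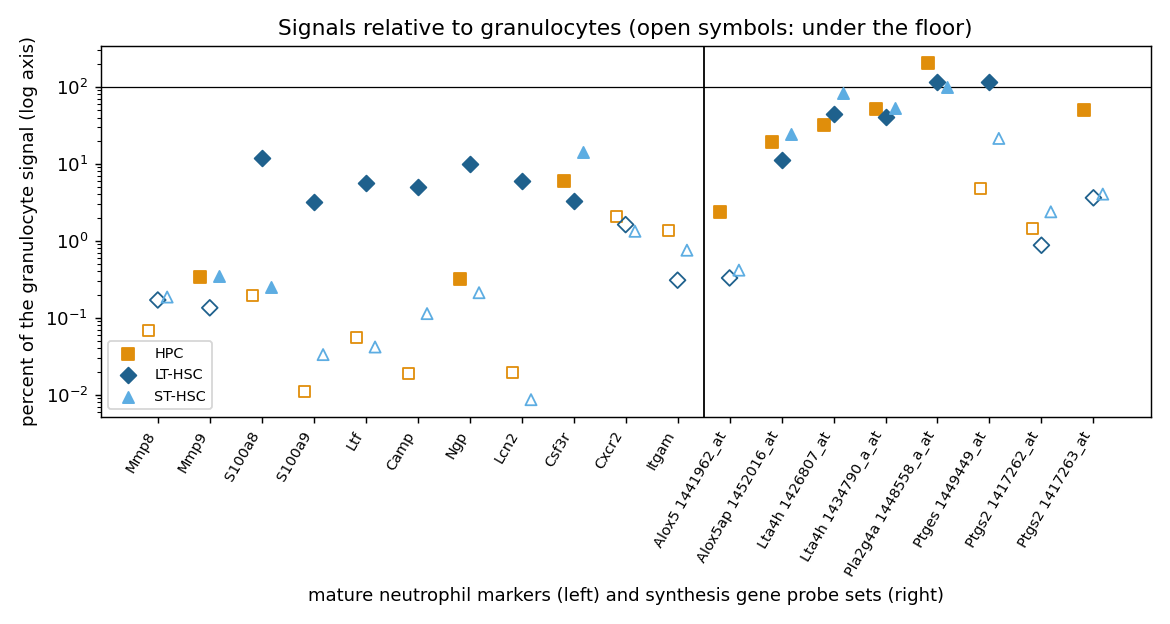
Signals on the HPC, LT-HSC and ST-HSC arrays as a percent of the granulocyte signal (log axis), for 11 neutrophil markers and for the 8 synthesis gene probe sets above the floor in granulocytes, with open symbols for signals under the floor. LT-HSC reached 11.9% for S100a8 and 10.1% for Ngp but 0.135% for Mmp9 and 0.329% for Alox5, both under the floor. Only Pla2g4a and Ptges have points above 100%.

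Other genes of eicosanoid metabolism were taken from a list of 75 genes, of which 69 were measured. In granulocytes 8 of the 69 (11.6%) were at least 4-fold higher than on each other array and 3 (4.35%) at least 4-fold lower, beside the 2.86% and 5.34% of all genes given above. The share of lower genes was under that of all genes. Like the members, the list was chosen with earlier results of these data known, so its shares are not independent of them. In neither of the other comparisons did any of the 69 reach 4-fold.

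Receptors of leukotrienes and lipoxin were among the 8. Ltb4r1, the leukotriene B4 receptor, had 5876 in granulocytes, 147 in LT-HSC, 137 in HPC and 20.5 in ST-HSC, which was 40.1-fold above the nearest array. Fpr2, a formyl peptide receptor that also binds lipoxin, had 40124 in granulocytes, 281 in LT-HSC, 102 in HPC and 85.7 in ST-HSC, which was 143-fold above the nearest array. Granulocytes thus had the highest signal of the 4 arrays for Alox5, Alox5ap, Lta4h and Ltb4r1. Cysltr1 and Cysltr2, receptors of the cysteinyl leukotrienes, lay between 5.7 and 161 on the 4 arrays and are named outside the 4-fold rule.

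Enzymes that act beside or after Alox5 were also among them. Cyp4f18, which inactivates leukotriene B4, had 7959 in granulocytes and 4.6 to 30.1 elsewhere, at least 66.3-fold higher. Its second probe set was under the floor on all 4 arrays. Mgst2, a glutathione transferase that can make leukotriene C4 in cells without Ltc4s, had 13083 in granulocytes and 1128 to 1329 elsewhere, a 9.85-fold difference. Its relative Mgst1 was 9.87-fold higher on one probe set and unmeasured on the other. Cotl1, which binds 5-lipoxygenase, was 5.74-fold higher, and granulocytes were the highest array on all 6 of its probe sets. Anxa1, the annexin known to restrain phospholipase A2, was 5.19-fold higher at 52474. After scaling to the hybridization controls, Cotl1 and Anxa1 were each 1.90 higher on the log2 scale, under 4-fold. Anxa1 was also under 4-fold after quantile normalization, at 1.93. Pla2g7, the phospholipase that inactivates platelet-activating factor, was at least 28.5-fold higher at 3425.

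The 3 lower genes were Abcc1, an exporter of leukotriene C4, the lysosomal phospholipase Pla2g15 and Dicer1, the RNase of microRNA processing. Abcc1 had 692 in granulocytes and 5024 to 6859 elsewhere, which was 7.26-fold lower. Pla2g15 had 106 against 643 to 1057, at least 5.36-fold lower. Dicer1 had 341 against 1606 to 2050, 4.71-fold lower. With the median taken over probe sets, Dicer1 alone of the 3 passed 4-fold, and with the floor at the pooled 75th percentile Abcc1 alone did.

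**Figure D3:**
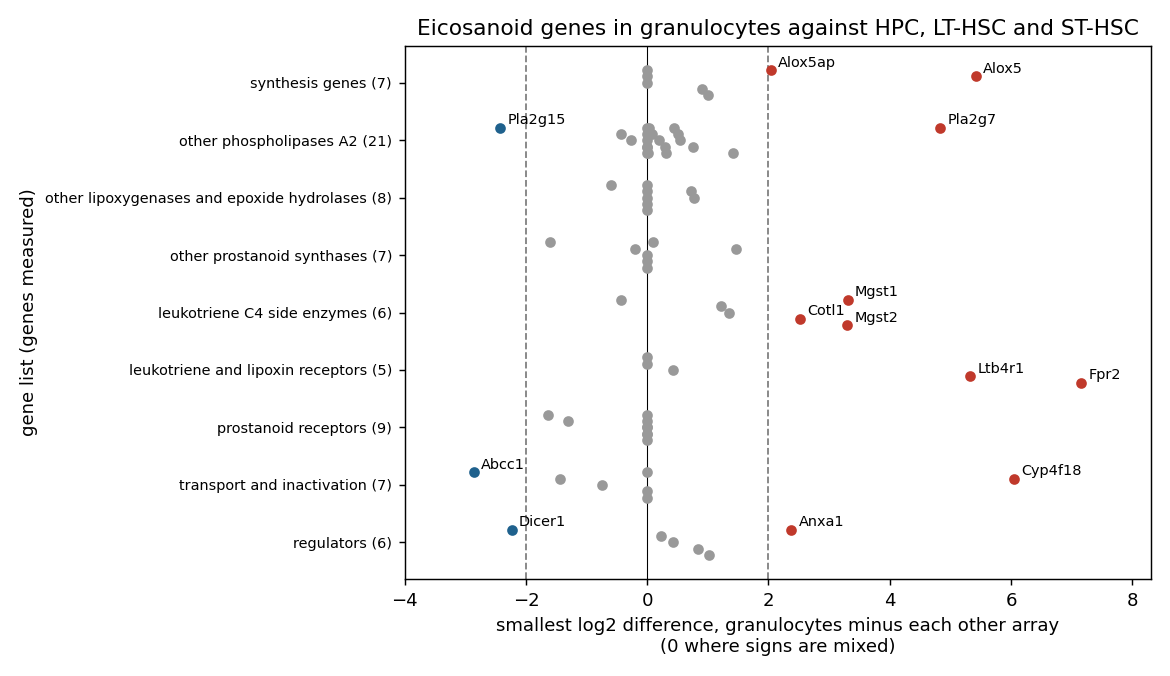
Smallest log2 difference between granulocytes and the other 3 arrays for each gene (1 point per gene, 0 where the signs were mixed), by list, with dashed lines at 4-fold. Points to the right are higher in granulocytes, led by Fpr2, Cyp4f18, Alox5 and Ltb4r1, and none of the 9 prostanoid receptors passes either line.

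Receptors for prostanoids followed another order. None of the 9 was at least 4-fold apart in any of the 3 comparisons as reported. With the floor at the pooled 25th percentile, Ptger3 and Tbxa2r were at least 4-fold lower in granulocytes than on each other array. Ptger3 also passed 4-fold without HPC among the reference arrays and against the mean of those arrays. Ptger2, Ptger4, Ptger3 and Tbxa2r are named here after their values were seen. Ptger2 and Ptger4 are receptors of prostaglandin E2 that raise cyclic AMP. Ptger2 had 5445 in HPC, 3417 in ST-HSC, 2248 in granulocytes and 947 in LT-HSC. Ptger4 had 10704, 8139, 6541 and 2990 in the same order. Both were highest in HPC and lowest in LT-HSC, 3.61-fold and 2.72-fold under ST-HSC. Ptger3, which lowers cyclic AMP, was at 1443 in ST-HSC, 502 in LT-HSC, 297 in HPC and 8.1 in granulocytes. Its second probe set was under the floor on all 4 arrays. LT-HSC, the array with the highest Ptges signal, therefore had lower signals than ST-HSC for Ptger2, Ptger4 and Ptger3, under each scaling tried.

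**Figure D4:**
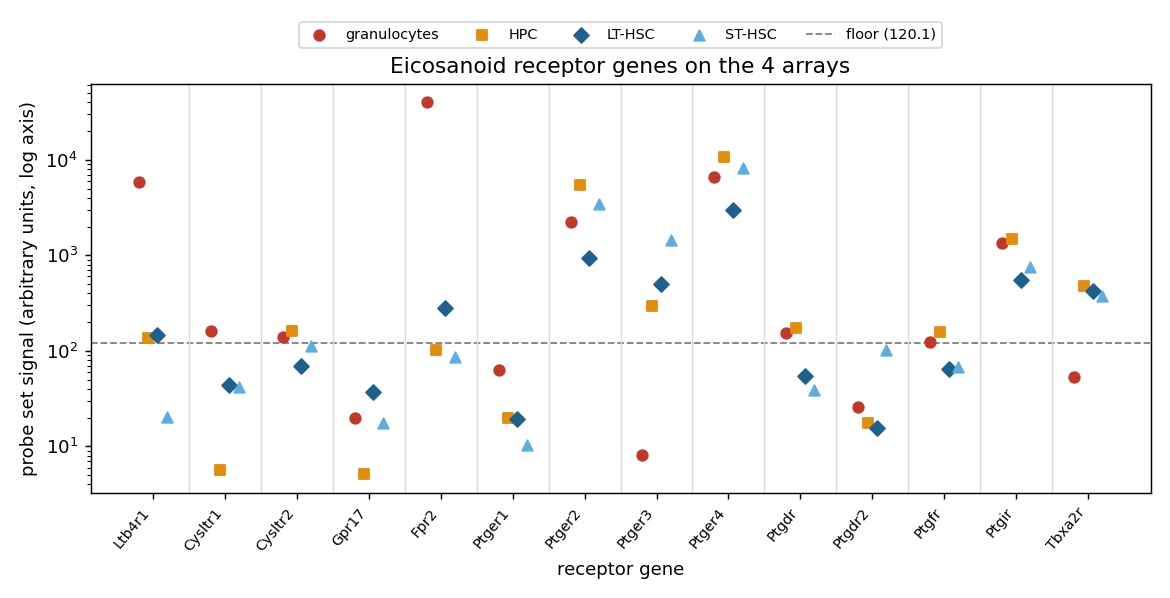
Signals of 5 leukotriene or lipoxin receptor genes and 9 prostanoid receptor genes on the 4 arrays, in arbitrary units on a log axis, 1 point per array, with the floor as a dashed line. Ltb4r1 and Fpr2 are highest in granulocytes, and Ptger2 and Ptger4 are above the floor on all 4 arrays with LT-HSC lowest.

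The terminal synthases other than Ptges were examined as well, and Tbxas1 and Ptges2 are named after their values were seen. Tbxas1, which makes thromboxane, had 1426 in LT-HSC, 1246 in granulocytes, 572 in ST-HSC and 523 in HPC. Like Ptges on its brightest probe set, it was highest in LT-HSC and granulocytes. Ptges2, a second prostaglandin E synthase, had 978 in granulocytes, 354 in ST-HSC, 224 in HPC and 109, under the floor, in LT-HSC.

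The genes whose 4-array profiles came nearest to those of the 2 members above 4-fold were found after centring each log2 profile on its own mean, as those whose largest absolute distance over the arrays was smallest. For Alox5 they were Cebpd (0.27), Acta2 (0.30) and Arg2 (0.33), and 14 genes in all lay within 0.5. For Alox5ap they were Hmga2-ps1 (0.07), Rel (0.13) and Rinl (0.19), and 65 lay within 0.5. With 4 arrays, many genes can share a profile.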

How the data were processed

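Per the labels, RNA from sorted cells was amplified in 2 rounds with aminoallyl labelling, biotin was coupled, and each of 4 samples went on 1 array. The intensity of each probe set, as deposited by the authors, is linear. The software that made it was not given in the sources used here, nor were detection calls. The trimmed mean (2% from each end) was 500.00 on every array, so values were used as deposited. Median signals were 113.9 to 131.8 and 48.7% to 52.5% of probe sets lay above the floor.

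Of 45101 probe sets, 64 controls were left out. GEO's platform annotation gave 1 symbol for 34945 of the other 45037, several for 932 and none for 9160. Of the single-symbol probe sets, 34741 matched RefSeq (GRCm38.p6) by Entrez number, used for names only. For each gene the probe set whose floored log2 values had the highest mean was used. Comparisons were granulocytes against each other array, HPC against each stem cell array, and LT-HSC against ST-HSC, with a threshold of 4-fold and no test. Named genes were the members, listed pathway genes past 4-fold and the 3 nearest profiles. Others, marker genes included, were named after their values were seen. Members, lists and motifs were chosen with earlier results of these data known. Alternatives covered scaling, floor, probe set choice, threshold, reference arrays and dim genes. Markers of T and NK cells, megakaryocytes and oocytes were also listed. Their summed signals ran over the 4 arrays from 611 to 2394 (5 genes), 1109 to 3552 (7 genes) and 612 to 1339 (9 genes). Eosinophil markers summed to 161 to 407 (5 genes). The procedure was tested on simulated data. Python 3.11.15, numpy 2.4.6, pandas 2.3.3 and matplotlib 3.10.9 were used.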

Additional observations from a re-analysis of the deposited data

How the results depend on the processing

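Alox5 remained at least 4-fold higher in granulocytes under all 13 alternatives. Only the scalings and the higher floor could have lowered its difference. The other settings could only keep or raise it, or did not apply to a gene with 1 probe set. Its smallest log2 difference was 4.40, with the floor at the pooled 75th percentile, against 5.42 as reported. The count of members at least 4-fold higher in granulocytes was 2 as reported. It was 1 after quantile normalization and 1 after scaling to the hybridization controls, in both cases because Alox5ap fell short. The count for HPC, 1 as reported, was 2 with the floor at the pooled 25th percentile (Ptgs2 and Alox5), 0 with it at the 75th and 0 with the median over probe sets. The count for LT-HSC, 1 as reported, was 0 after scaling to a common 75th percentile, after quantile normalization, with the floor at the 75th percentile and with the median over probe sets. At 2-fold, 1 member (Alox5ap) was lower in LT-HSC, against 0 at 4-fold. Without HPC among the reference arrays, Ptgs2 passed in granulocytes too, at 3.14 on the log2 scale against 1.00. Leaving out replicates was not possible with 1 array per cell type.

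In the pathway list, alternatives added after seeing the data, the 8 higher genes became 13 at 2-fold and 6 to 10 otherwise. The 3 lower genes became 7 at 2-fold, 6 with the floor at the 25th percentile and 6 against the mean of the references, 5 without HPC, 1 (Abcc1) with the floor at the 75th percentile and 1 (Dicer1) with the median over probe sets. For HPC, 2 were higher and 2 lower at 2-fold, and 1 higher with the lower floor. For LT-HSC these were 3 and 6 at 2-fold, 2 higher with the lower floor, and 1 lower after scaling to the 75th percentile, against 0 throughout as reported.

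Over 8069 genes above the floor on all arrays, scaling to the hybridization controls moved the median granulocyte difference by -0.52 and scaling to the 75th percentile by 0.23. Of all genes past 4-fold in granulocytes, 65.1% were lower as reported and 79.3% after scaling to the controls. For LT-HSC against ST-HSC the shares were 34.9% and 20.8%, and for HPC 55.8%, against 43.9% after scaling to the 75th percentile. Signals near or under the floor limit Ptges, Ptgs2, Ltc4s and, for HPC, Alox5.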

Other observations

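Some genes on the lists for other cell types were bright in granulocytes while their companions were far dimmer. Hdc, which makes histamine and was listed for basophils and mast cells, had a signal of 29776 in granulocytes and between 31.5 and 263 elsewhere, while the other 7 measured genes of that list lay between 7.1 and 229 in granulocytes, 3 of them (Mcpt4, Tpsb2 and Cpa3) above the floor. Inhba, an activin subunit gene listed for cumulus cells, had 6566 in granulocytes, 459 in LT-HSC and 31.7 to 35.5 in HPC and ST-HSC. Both were singled out after their values were seen.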
